A study of Mus musculus with 6 samples.

Results

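The genes described here are 10 members of the mouse Hoxa and Hoxb clusters, 5 in each: Hoxa3, Hoxa5, Hoxa7, Hoxa9 and Hoxa10, and Hoxb2, Hoxb3, Hoxb4, Hoxb5 and Hoxb8. They were taken by symbol from a table of 24110 genes, as Hox genes known from blood stem cells, and all 10 were found. Of these, 9 averaged 10 or more scaled counts across the 6 libraries and were tested, while Hoxb8, with a mean of 6.76, was not. No tested member passed the adjusted threshold between Prmt5 fl/fl and Prmt5 KO stem cells, and the clusters had a similar steep profile of levels in both genotypes: Hoxa7, Hoxa9, Hoxa10 and Hoxb2 at the top, Hoxa3, Hoxb3 and Hoxb4 far lower, and Hoxb8 close to the limit of detection.

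Hox genes encode homeodomain transcription factors that lie side by side in clusters, in an order that matches their order of use along the body axis. Blood stem cells and early progenitors express genes mostly of the Hoxa and Hoxb clusters and switch them off as they mature. The proteins bind DNA together with cofactors of the TALE class, among them the MEIS proteins, the MLL complexes maintain their active chromatin, and the Polycomb complexes silence them. Forced expression of Hoxa9 with Meis1 transforms myeloid progenitors, and forced Hoxb4 expands stem cells.

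The cells were hematopoietic stem cells of C57BL/6 mice, gated as negative for Lineage markers and CD48 and positive for Sca-1 and CD150. The control group was Prmt5 fl/fl, in which the gene is flanked by recombination sites, and the other group was Prmt5 KO (Δ/Δ), in which that segment is deleted. Both were collected on day 7 after induction, and for the inducing agent, the recombinase and the animals' age nothing is given in the sources used here. Every library held marrow cells of 2 mice, matched between genotypes by litter and sex, with 3 libraries in each group. PRMT5 is an arginine methyltransferase that acts on splicing factors, histones and other proteins, and the title of the series names its role in splicing.

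Library totals were 42213314 to 44704636 reads in genes for Prmt5 fl/fl and 37834096 to 41812565 for Prmt5 KO, without overlap, and the deposited values are scaled to a common total. Prmt5 itself measured 6037 ± 34.9 scaled counts (SD, n = 3) in Prmt5 fl/fl and 1001 ± 90.2 in Prmt5 KO. Stem cell markers were present at 10 of 10, with a summed level of 86250 to 130804 in Prmt5 fl/fl and 92077 to 107122 in Prmt5 KO. Libraries stood apart in both groups. In Prmt5 fl/fl replicate 3, 86.3% of tested genes lay outside the range of the other 2 libraries of its genotype, against 54.9% to 72.3% in the other 5 libraries. Among 3 values, the highest and the lowest lie outside the range of the other 2 unless tied. The mean of these shares over the libraries of a genotype is thus fixed by the design, and only their differences describe a library. Prmt5 KO replicate 3 had a summed level of 8 granulocyte and monocyte markers of 541752, against 55749 to 197764 in the other 5 libraries. The 8 megakaryocyte and platelet markers summed to 50785 to 77547 in Prmt5 fl/fl and 21705 to 47927 in Prmt5 KO, and the 10 red cell markers to 3199 to 7695 and 2108 to 2509, with the globin genes Hba-a1, Hba-a2, Hbb-bs and Hbb-bt at 0 in all libraries. Markers of B cells summed to 1829 to 2950 and 1605 to 1859, those of T and NK cells to 4591 to 7201 and 4041 to 5324, and those of stromal and endothelial cells to 887 to 1315 and 694 to 1552. Antigens that the gate selects against summed to 1303 to 3406 in Prmt5 fl/fl and to 2413, 1719 and 14055 in Prmt5 KO replicates 1 to 3. The high value was thus that of Prmt5 KO replicate 3 alone. Of these lists limma called 1 megakaryocyte gene, Itga2b, and 1 red cell gene, Klf1, both lower in Prmt5 KO. With the replicate block neither was called, edgeR called 1 megakaryocyte and 0 red cell genes, and DESeq2 called 4 and 2. The part of these differences in the Hox values was not tested. In bulk RNA, fewer cells of a type and less RNA per cell cannot be told apart.

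On build mm10 (GENCODE M21) the 5 Hoxa genes lay on the minus strand of chromosome 6 within 71.8 kb, at positions 52169062 to 52240854. The 5 Hoxb genes lay on the plus strand of chromosome 11 within 72.1 kb, at positions 96281905 to 96354012. In this annotation, which may not be the one used for the deposited counts, neighbouring transcripts share sequence with some of them, and strand is not recorded by the kit, so reads from a gene and its antisense partner cannot be told apart. Hoxb3 shared 52.9% of its exonic bases with the antisense transcript Hoxb3os, and Hoxb2 shared 27.3% with the same transcript. Hoxa3 shared 27.1% with other genes, among them Hoxaas2 (8.36%), Gm28308 (8.02%), Hoxaas3 (4.94%) and 5730596B20Rik (4.86%), and Hoxa7 shared 20.4% with Hoxaas3. Hoxb5 shared 3.59% with Hoxb5os, and 1.52% of the Hoxa9 exons was the hairpin of the microRNA gene Mir196b. Hoxa5, Hoxa10, Hoxb4 and Hoxb8 shared none.

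The clusters also encode microRNAs that pair with Hox transcripts. The mature sequences below are from RefSeq (GRCm38.p6) and are shown because miR-196 is known to cut Hoxb8 RNA, the member with the fewest reads. Capitals mark the seed, bases 2 to 8, which miR-196a and miR-196b share. miR-196b is encoded at chr6:52230129-52230150 on the minus strand and miR-196a, from Mir196a-1, at chr11:96265187-96265208 on the plus strand.
miR-196a-5p: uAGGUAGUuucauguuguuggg
miR-196b-5p: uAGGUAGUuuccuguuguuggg

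A search of the 3′ untranslated part of 1 coding transcript per member found the full seed match of miR-196 at 4 places in Hoxa7 and at 1 place each in Hoxa5 and Hoxa9, and at none in the other 7 members. Hoxb8 held a site with 1 G:U pair in the seed whose 22 bases paired nearly throughout, with 21 bases paired to miR-196a and 1 wobble, and with 20 paired and 1 wobble for miR-196b. Across the same length the 4 Hoxa7 sites had 9 to 14 paired bases. Capitals in the sites mark the stretch opposite the seed. Hoxb8 lies on the plus strand (chr11:96284888-96284909), and the others lie on the minus strand, with the Hoxa7 sites at chr6:52215400-52215421 and chr6:52215210-52215231, the Hoxa9 site at chr6:52223900-52223921 and the Hoxa5 site at chr6:52202118-52202139.
Hoxb8 site: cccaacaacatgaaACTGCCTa
Hoxa7 site at 52215400: ggcacagccaaaatACTACCTa
Hoxa7 site at 52215210: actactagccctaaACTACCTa
Hoxa9 site: caaaaggaaagaaaACTACCTt
Hoxa5 site: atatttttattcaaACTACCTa
The mature microRNAs were not measured here, and a match in sequence is a description, not evidence of pairing in these cells.

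Within the Hoxa cluster, Hoxa9, the posterior gene most closely tied to stem cell function and myeloid leukemia, gave 2422, 2517 and 3122 in Prmt5 fl/fl replicates 1 to 3 and 3239.9, 3143 and 2769 in Prmt5 KO scaled counts, where 1 read is worth 1 to 1.18 scaled counts. The groups overlapped, with means of 2687 ± 380 in Prmt5 fl/fl and 3051 ± 249 in Prmt5 KO (SD, n = 3). Its log2 fold change was 0.19 (SE 0.15, 95% interval -0.16 to 0.54, adjusted p = 0.533, limma with Benjamini-Hochberg adjustment over all genes, as for every adjusted p below unless another tool is named). Hoxa10, its posterior neighbour, measured 1889, 1936 and 2177 in Prmt5 fl/fl replicates 1 to 3 and 1502, 1942 and 1478 in Prmt5 KO. All 3 Prmt5 fl/fl libraries lay within a narrow band, while Prmt5 KO replicate 2 reached it and the other 2 Prmt5 KO libraries lay below. The log2 fold change of Hoxa10 was -0.30 (SE 0.16, interval -0.67 to 0.078, adjusted p = 0.378). For Hoxa7, a central cluster gene also raised in leukemias with rearranged MLL, the values were 1228, 1217 and 1629.8 in Prmt5 fl/fl replicates 1 to 3 and 1412, 1423 and 1311 in Prmt5 KO. The Prmt5 KO libraries fell inside the Prmt5 fl/fl range, which its replicate 3 set at the top, and the log2 fold change was 0.038 (SE 0.17, interval -0.35 to 0.42, adjusted p = 0.922).

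Hoxa5, a regulator of lung and skeletal patterning that also acts in blood progenitors, had 494, 500 and 333 in Prmt5 fl/fl replicates 1 to 3 and 510.4, 661 and 502 in Prmt5 KO. The groups did not overlap, though by little, since the highest Prmt5 fl/fl library stood at 500 and the lowest Prmt5 KO library at 502. Its log2 fold change of 0.35 (SE 0.23, interval -0.19 to 0.89) had an adjusted p of 0.467. The values of Hoxa3, which patterns the pharyngeal arches and the thymus, were 211, 306 and 130.3 in Prmt5 fl/fl replicates 1 to 3 and 219, 259 and 177 in Prmt5 KO. They spread widely among the Prmt5 fl/fl libraries, where the coefficient of variation was 40.8%, and the log2 fold change was 0.085 (SE 0.35, interval -0.73 to 0.89, adjusted p = 0.918).

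In the Hoxb cluster the most abundant member was Hoxb2, an anterior gene of hindbrain patterning, at 1083, 996 and 1273 in Prmt5 fl/fl replicates 1 to 3 and 1360.0, 1097 and 1054 in Prmt5 KO scaled counts. The groups overlapped, and the log2 fold change was 0.065 (SE 0.17, interval -0.34 to 0.47, adjusted p = 0.866). Hoxb5, used in reporter mice to mark long-term stem cells, gave 422, 435 and 581 in Prmt5 fl/fl replicates 1 to 3 and 416, 418 and 412 in Prmt5 KO. The 3 Prmt5 KO libraries had an SD of 2.92 around a mean of 415 and lay just below the Prmt5 fl/fl range. Hoxb5 had 352, 391 and 349 reads in them, where counting error is larger than that SD and than the gap to Prmt5 fl/fl. Its log2 fold change was -0.19 (SE 0.20, interval -0.65 to 0.26, adjusted p = 0.631). Hoxb3, the neighbour of Hoxb2, was measured at 156, 183 and 229.8 in Prmt5 fl/fl replicates 1 to 3 and 122, 139 and 128 in Prmt5 KO, with every Prmt5 KO library below every Prmt5 fl/fl library. It had the largest difference of the 9 tested members, a log2 fold change of -0.53 (SE 0.25, interval -1.12 to 0.053, adjusted p = 0.315). The interval reaches from a fall by more than 1 log2 unit to just above 0, and the overlap with Hoxb3os given above applies to these reads as far as they were counted without strand.

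Hoxb4, the gene best known for expanding stem cells when forced, stood at 89.1, 104 and 66.7 in Prmt5 fl/fl replicates 1 to 3 and 93.3, 107 and 98.0 in Prmt5 KO. The groups overlapped through the low value of Prmt5 fl/fl replicate 3, and the log2 fold change was 0.22 (SE 0.29, interval -0.46 to 0.90, adjusted p = 0.717). Hoxb8, known for holding myeloid progenitors in an immature state when forced, was covered by 1, 5 and 5 reads in the Prmt5 fl/fl libraries and by 2, 13 and 11 reads in the Prmt5 KO libraries, a total of 11 against 26. In both groups replicate 1 was at or below 3 reads, the level that a count of 0 allows in 1 library, and the groups overlapped. Without the filter on low values, limma gave Hoxb8 a log2 fold change of 1.07 (SE 0.80, interval -0.78 to 2.91, adjusted p = 0.564).

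**Figure D1:**
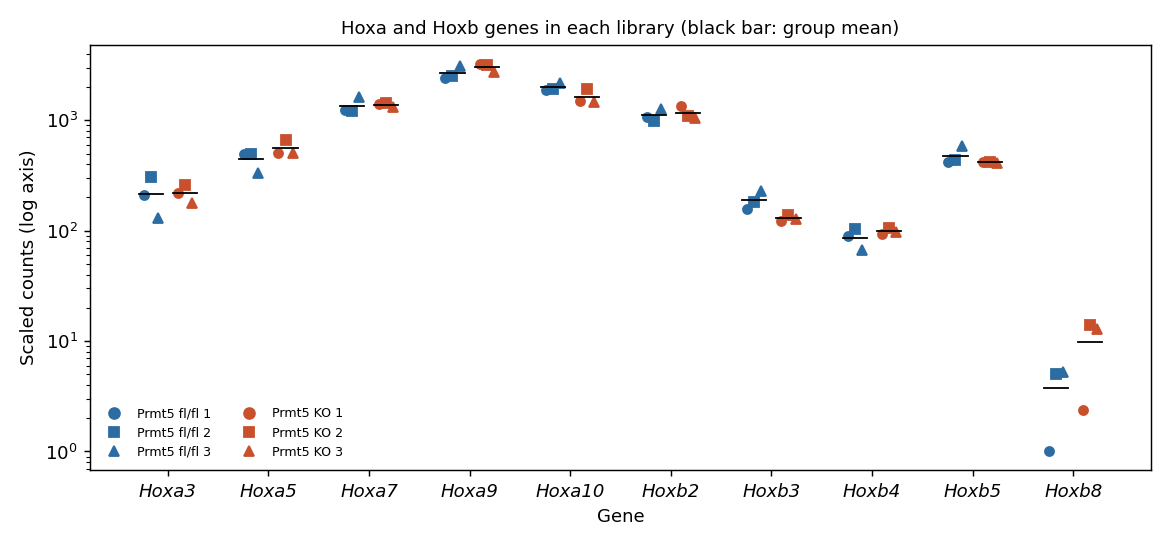
Scaled counts (log axis) of the 10 Hoxa and Hoxb genes in each of the 6 libraries, with a black bar at each group mean. Means of the 2 genotypes lie close together beside the range between genes, Hoxb3 is 156 to 230 in Prmt5 fl/fl and 122 to 139 in Prmt5 KO, and Hoxb8 stays under 14 scaled counts in every library.

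None of the 9 tested members passed the adjusted threshold of 0.05, against 0.73% of all 14113 genes tested (39 higher and 64 lower in Prmt5 KO). With the replicate number as a block, 1 gene was higher and 0 were lower over all genes, and no member was called. At an unadjusted p below 0.05 the members' count was also 0, against 18.2% of all genes. edgeR's quasi-likelihood test on the recovered reads called 0 members and 0.425% of all genes, and DESeq2 called 0 members and 7.1%. The values of the 2 groups did not overlap for 3 of the 9 members (Hoxa5 higher, Hoxb3 and Hoxb5 lower in Prmt5 KO), against 28.2% of all genes, a share close to the members' own. Of the 9 fold changes 6 were above 0, with a median of 0.065 on the log2 scale, beside -0.048 over all genes. The widest interval, that of Hoxa3, spans -0.73 to 0.89, and the narrowest, that of Hoxa9, spans -0.16 to 0.54, so changes of a size inside these intervals could not be told from none.

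**Figure D2:**
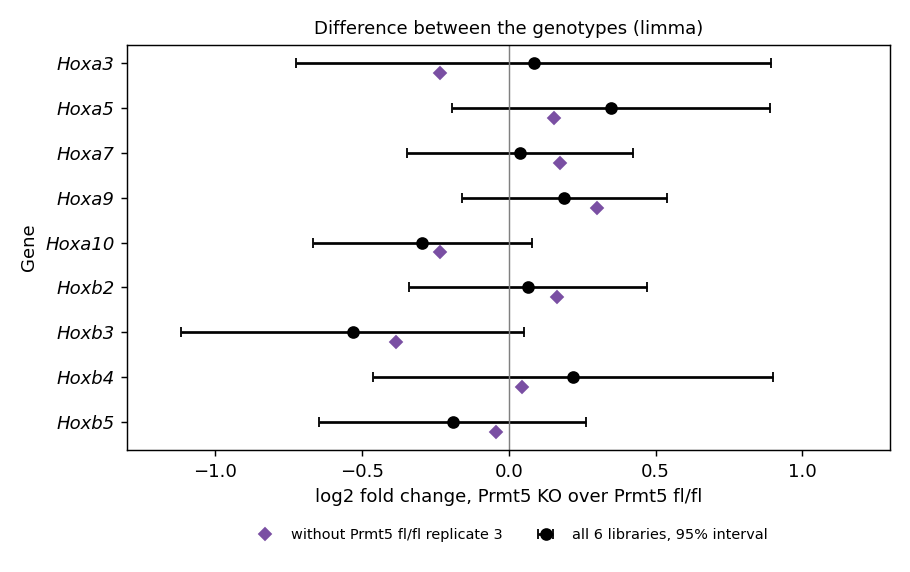
Log2 fold change (Prmt5 KO over Prmt5 fl/fl, limma on log2(scaled count + 1)) of the 9 tested members with its 95% interval from all 6 libraries (black), and the estimate without Prmt5 fl/fl replicate 3 (purple). Every interval includes 0, and without that library Hoxa3 moves from 0.085 to -0.23.

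Levels of different genes were compared per kilobase of the deposited gene length. Among Prmt5 fl/fl libraries Hoxa9 stood highest of the 10 members at 832 ± 118 scaled counts per kilobase (SD, n = 3), followed by Hoxa7 at 696 ± 121, Hoxb2 at 686 ± 86.9 and Hoxa10 at 637 ± 49.3. Each of these 4 overlapped its neighbour in the order. Hoxb5 at 253 ± 46.7 and Hoxa5 at 236 ± 50.6 formed the next level, 2.52-fold below Hoxa10 and not apart from each other. Hoxa3 at 84.8 ± 34.6 and Hoxb3 at 50.9 ± 10.1 overlapped, Hoxb4 followed at 33.7 ± 7.31, and Hoxb8 lay 23.7-fold below Hoxb4 at 1.42 ± 0.904. Among all tested genes, with levels per kilobase in Prmt5 fl/fl, Hoxa9 reached only percentile 63.8, Hoxb2 percentile 59.5, Hoxb5 percentile 38.9, Hoxb3 percentile 19.3 and Hoxb4 percentile 15.7.

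Prmt5 KO libraries had the same order within the Hoxa cluster: Hoxa9 at 945 ± 77.1 per kilobase, Hoxa7 at 708 ± 31.6, Hoxa10 at 522 ± 83.1, Hoxa5 at 297 ± 47.6 and Hoxa3 at 85.8 ± 16. Within the Hoxb cluster Hoxb2 at 718 ± 102 and Hoxb5 at 219 ± 1.54 again led, while Hoxb4 at 38.8 ± 2.69 now stood above Hoxb3 at 34.8 ± 2.36, in 3 of 3 libraries. In Prmt5 fl/fl Hoxb3 was above Hoxb4 in 3 of 3. The choice of length matters for this order. With the union of GENCODE exons as length, Hoxa10 led in Prmt5 fl/fl at 612 ± 47.3, ahead of Hoxa9 at 482 ± 68.0 and Hoxa7 at 472 ± 81.8, Hoxb2 fell to 320 ± 40.6 and Hoxa3 to 35.8 ± 14.6, the level of Hoxb4. Hoxa9 again led in Prmt5 KO under that length, at 547 ± 44.6, with Hoxa10 at 502 ± 79.9.

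**Figure D3:**
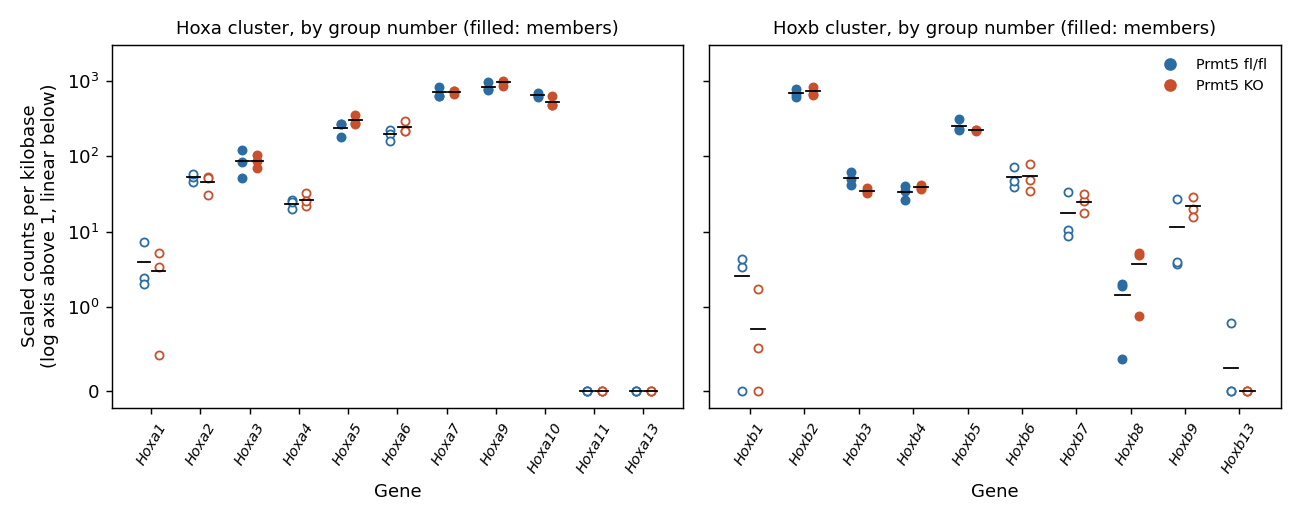
Scaled counts per kilobase of deposited length for all 21 Hoxa and Hoxb genes, one point per library and a black bar at the group mean, on an axis that is logarithmic above 1 and linear below. Filled points are the 10 members and open points the other 11 genes, and both genotypes trace the same peaks at Hoxa7 to Hoxa10 and at Hoxb2.

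Summed per kilobase, the 5 Hoxa members gave 2485 ± 210 in Prmt5 fl/fl and 2558 ± 219 in Prmt5 KO, and the 5 Hoxb members 1025 ± 133 and 1015 ± 96.6 (SD, n = 3), with overlap in both. Members of the Hoxa cluster thus outweighed those of the Hoxb cluster by 2.44 ± 0.135 times in Prmt5 fl/fl and by 2.53 ± 0.282 times in Prmt5 KO. All 10 together took 0.0192% ± 0.00189 of the reads in Prmt5 fl/fl and 0.0194% ± 0.00146 in Prmt5 KO. The shares of 2 of the 10 members did not overlap between the groups, beside 28.2% of all genes by level, so their number is no result about the members. Hoxa10 made up 25.4% to 25.8% of the Hoxa sum in the Prmt5 fl/fl libraries and 18.6% to 22.3% in the Prmt5 KO libraries. Hoxb3 made up 4.34% to 5.27% of the Hoxb sum in Prmt5 fl/fl and 2.91% to 3.82% in Prmt5 KO. The shares of the other 8 members overlapped.

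**Figure D4:**
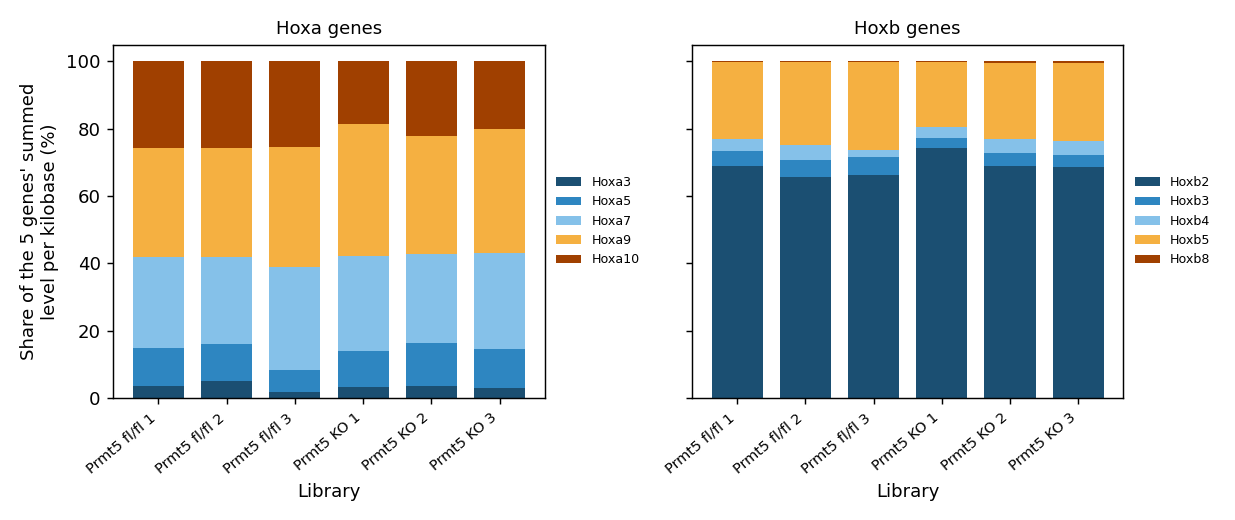
Share of each member (percent) in the summed level per kilobase of the 5 Hoxa members (left) and the 5 Hoxb members (right), one bar per library. The Hoxa10 share at the top of the left bars is 25.4% to 25.8% in Prmt5 fl/fl and 18.6% to 22.3% in Prmt5 KO.

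Ratios between members of 1 cluster do not depend on the library scaling. Over the 16 pairs that leave out Hoxb8, which share members with each other, the groups did not overlap in 6. This is a description with no test: single genes did not overlap in 28.2% of cases, and the share over other gene pairs was not computed. Hoxa9 over Hoxa10, per kilobase, was 1.25, 1.27 and 1.40 in Prmt5 fl/fl replicates 1 to 3 and 2.10, 1.58 and 1.82 in Prmt5 KO. Hoxa5 over Hoxa10 was 0.438, 0.432 and 0.256 against 0.569, 0.570 and 0.569. Hoxa5 had 432, 618 and 425 reads in the Prmt5 KO libraries, where counting error is larger than the spread of their ratios. Hoxa7 over Hoxa9 went from 0.834 ± 0.0321 to 0.751 ± 0.0313. In the Hoxb cluster all 3 such pairs involved Hoxb3. Hoxb3 over Hoxb4 was 1.21, 1.21 and 2.38 in Prmt5 fl/fl and 0.899, 0.896 and 0.897 in Prmt5 KO. The Prmt5 KO libraries held 103, 130 and 108 reads of Hoxb3 and 79, 100 and 83 of Hoxb4. Counting error is again larger than the spread of their ratios. Hoxb2 over Hoxb3 was 13.7 ± 1.92 against 20.8 ± 4.11, and Hoxb3 over Hoxb5 was 0.201 ± 0.0131 against 0.159 ± 0.0102.

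The library that stood apart over all genes, Prmt5 fl/fl replicate 3, did so at every tested member. Against the mean of the other 2 Prmt5 fl/fl libraries, on the log2 scale, Hoxa3 was at -0.96, Hoxa5 at -0.58 and Hoxb4 at -0.52, while Hoxb3 and Hoxb5 were at 0.44, Hoxa7 at 0.41, Hoxa9 at 0.34, Hoxb2 at 0.29 and Hoxa10 at 0.19. In the same library Hoxa6, which lies between Hoxa5 and Hoxa7, measured 111 scaled counts against 157 and 139, and Hoxaas3, which overlaps exons of Hoxa3 and Hoxa7, measured 68.8 against 116 and 104. Among the neighbouring genes from Hoxa3 to Hoxa10, the low values of this library were at Hoxa3, Hoxa5 and Hoxa6 and the high values at Hoxa7, Hoxa9 and Hoxa10, while Hoxa4, at 38.1 against 39.5 and 30, and Hoxa2, at 103 against 80.0 and 95, were not low. In Prmt5 KO, replicate 2 was above both other libraries at 7 of the 9 members and replicate 3 below both at 7 of 9. Over all tested genes, 64.9% in replicate 2 and 72.3% in replicate 3 lay outside both others in either direction. The all-gene shares above both or below both alone were not computed. The direction shared by the members thus has no like value beside it.

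**Figure D5:**
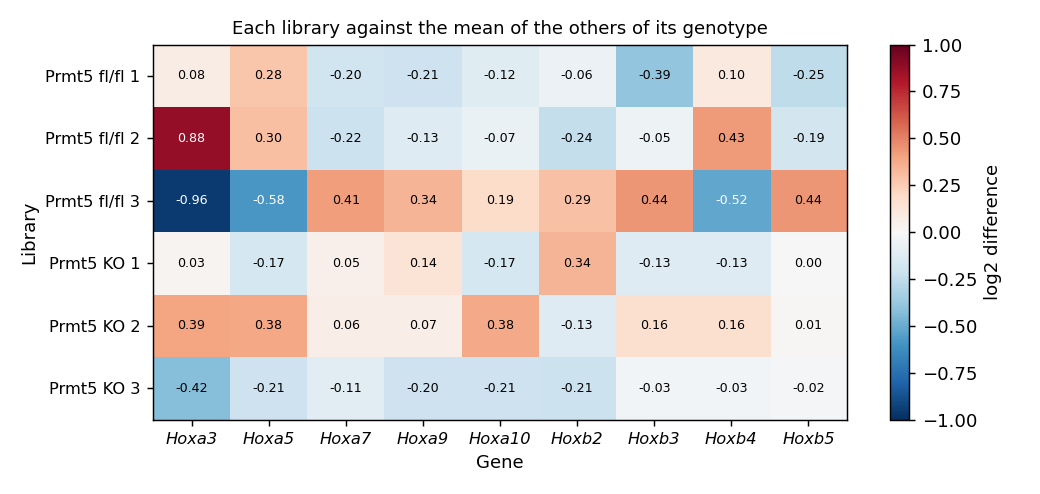
Difference (log2) of each library from the mean of the other 2 libraries of its genotype for the 9 tested members. Prmt5 fl/fl replicate 3 ranges from -0.96 at Hoxa3 to 0.44 at Hoxb3 and Hoxb5, a wider range than in any other library.

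Without Prmt5 fl/fl replicate 3, limma gave log2 fold changes of -0.23 for Hoxa3, 0.15 for Hoxa5, 0.18 for Hoxa7, 0.30 for Hoxa9 and -0.23 for Hoxa10. Those of the Hoxb members were 0.16 for Hoxb2, -0.38 for Hoxb3, 0.044 for Hoxb4 and -0.045 for Hoxb5. Hoxa3 thus changed sign, Hoxa5, Hoxa10, Hoxb3, Hoxb4 and Hoxb5 moved toward 0, and Hoxa9 had an unadjusted p of 0.0232 and an adjusted p of 0.147, the smallest of any member under any alternative. Over all genes that fit called 120 higher and 257 lower, where all 6 libraries gave 39 and 64. Without Prmt5 KO replicate 3 the values were 0.23 for Hoxa3, 0.42 for Hoxa5, 0.075 for Hoxa7, 0.26 for Hoxa9, -0.23 for Hoxa10, 0.14 for Hoxb2, -0.52 for Hoxb3, 0.23 for Hoxb4 and -0.19 for Hoxb5, and 1 gene was called higher and 2 lower. Neither fit called a member.

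The start regions of 7 of the 10 members are in the RefSeq promoter table (GRCm38.p6), 8 windows of 300 bases with 2 starts for Hoxa10. The windows were searched on both strands for CCAAT (bound by NF-Y), CACGTG (the E box), TATAAA (the TATA box) and TGATNNAT (a composite motif of Hox proteins and TALE cofactors), which are present in 37.4%, 7.15%, 13.6% and 8.85% of all 32851 promoters in the table. CCAAT was found in 3 windows, TATAAA in 2, TGATNNAT in 1 and CACGTG in 0. The Hoxb8 window, shown as that of the lowest member, held CCAAT at 1 place, TATAAA at 2 and TGATNNAT at 1, with a GC content of 42.3% and 13 CpG. Its CCAAT match lay on the strand of the gene, while its TATAAA and TGATNNAT matches all lay on the opposite strand. The Hoxa9 window, shown as that of the highest member, held none of the 4, with a GC content of 49.7% and 4 CpG, beside medians of 52.7% and 7 over all promoters. In the 250 bases upstream, 5′ to 3′ on each gene's strand, capitals mark the motifs, on either strand. The Hoxb8 stretch is chr11:96281655-96281904 (plus strand) and the Hoxa9 stretch chr6:52227371-52227620 (minus strand).
Hoxb8 upstream: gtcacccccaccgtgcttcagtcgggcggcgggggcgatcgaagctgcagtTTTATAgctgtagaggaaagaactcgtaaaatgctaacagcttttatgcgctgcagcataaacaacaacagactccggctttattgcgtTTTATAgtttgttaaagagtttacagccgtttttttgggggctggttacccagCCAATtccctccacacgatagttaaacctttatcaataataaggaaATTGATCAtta
Hoxa9 upstream: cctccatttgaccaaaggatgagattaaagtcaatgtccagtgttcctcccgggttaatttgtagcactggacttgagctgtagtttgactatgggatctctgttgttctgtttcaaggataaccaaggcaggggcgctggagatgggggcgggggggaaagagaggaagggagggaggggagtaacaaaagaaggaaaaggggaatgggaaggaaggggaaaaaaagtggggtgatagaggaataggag
The Hoxa10 window at its inner start, chr6:52234940-52235189 (minus strand), held CCAAT and TATAAA at 1 place each, while that of its outer start held none. The TATAAA match lay on the strand opposite to the gene, at -160 bases from the inner start.
Hoxa10 upstream, inner start: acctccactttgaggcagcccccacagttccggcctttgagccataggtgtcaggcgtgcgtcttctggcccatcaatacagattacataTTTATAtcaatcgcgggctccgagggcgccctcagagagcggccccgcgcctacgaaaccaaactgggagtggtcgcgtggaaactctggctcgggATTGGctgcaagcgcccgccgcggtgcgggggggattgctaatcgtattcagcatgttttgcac

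Among the other 11 genes of these 2 clusters 6 were tested, and 0 passed the threshold with limma, edgeR or DESeq2. Hoxa6 measured 136 ± 23.0 scaled counts in Prmt5 fl/fl and 170 ± 31.8 in Prmt5 KO, Hoxa2 92.6 ± 11.6 and 80.4 ± 22.4, and Hoxa4 35.9 ± 5.13 and 40.6 ± 8.36. Hoxb6 measured 69.0 ± 22.2 and 71.2 ± 29.5, and Hoxb7 22.2 ± 17.5 and 31.3 ± 8.57. Hoxb9 gave 10.1, 73 and 10.6 in Prmt5 fl/fl against 54.4, 78.0 and 42.5 in Prmt5 KO, with a log2 fold change of 1.44 (SE 0.77, interval -0.36 to 3.24, adjusted p = 0.372). That value rests on single libraries: it was 2.34 without Prmt5 fl/fl replicate 2 (adjusted p = 0.193), 0.97 and 1.00 without replicates 1 and 3, and 0.96 with edgeR, with adjusted p of 0.193 to 0.588 over the alternatives. Hoxa11 and Hoxa13, the most posterior genes of the Hoxa cluster, were at 0 in all 6 libraries. Of 18 genes of the Hoxc and Hoxd clusters, 11 were at 0 in all libraries and 1 was tested, Hoxc6, at 17.6 ± 7.75 and 19.4 ± 8.61. Those 18 genes together had 11 to 35 reads per library, where the 21 Hoxa and Hoxb genes had 7065 to 9380.

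Of 20 noncoding transcripts of the Hox clusters 11 had a row in the table and 2 were tested. Hoxaas3 measured 96.4 ± 24.7 in Prmt5 fl/fl and 119 ± 37.4 in Prmt5 KO. The row of Mir196b, reads over the hairpin of miR-196b that lies among Hoxa9 exons, was 48.6, 60 and 64.6 in Prmt5 fl/fl and 28.4, 44.9 and 47.3 in Prmt5 KO. These groups did not overlap, and the log2 fold change was -0.54 (SE 0.37, interval -1.40 to 0.32, adjusted p = 0.478). The row held 48, 60 and 61 reads in Prmt5 fl/fl and 24, 42 and 40 in Prmt5 KO. Counting error at such numbers is larger than the gap between the nearest libraries of the groups. Of 12 genes that flank the clusters, 9 were tested and 0 passed. The smallest p was that of Skap2, an adaptor of leukocyte signaling beyond the anterior end of the Hoxa cluster, with a log2 fold change of -0.25 (adjusted p = 0.421).

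The partners of the Hox proteins and the factors that control the clusters were read from 5 lists. Of 11 genes of the TALE class 10 were tested and 0 passed with limma or edgeR, while DESeq2 called 1, beside 7.1% of all genes. With limma 2 had an unadjusted p below 0.05, both lower in Prmt5 KO, beside 18.2% of all genes. Meis1, the usual partner of Hoxa9, was 18377, 23170 and 20961 in Prmt5 fl/fl and 14896, 17921 and 14582 in Prmt5 KO. Its groups did not overlap, with a log2 fold change of -0.40 (SE 0.14, interval -0.72 to -0.078, adjusted p = 0.193), and DESeq2 gave an adjusted p of 0.279. The median over the 10 tested genes of the TALE class was -0.34, beside -0.048 over all genes.

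Of 17 genes of MLL and acetyltransferase complexes, which keep Hox chromatin active, 0 passed, and the smallest p was that of Mllt3, a component of elongation complexes, at -0.29 (adjusted p = 0.342). Of 17 Polycomb genes 0 passed, with Cbx7, a subunit that reads the repressive mark, at -0.70 (SE 0.22, interval -1.21 to -0.19, adjusted p = 0.160). Among 13 regulators known upstream of Hox genes, 10 were tested and 0 passed, and Cdx1 and Cdx4 were at 0 in all libraries. Rarb, a retinoic acid receptor, was lowest in p, at 346 ± 39.5 in Prmt5 fl/fl and 164 ± 44.5 in Prmt5 KO, a log2 fold change of -1.10 (SE 0.27, interval -1.73 to -0.48, adjusted p = 0.103), and DESeq2 called it (-0.99, adjusted p = 0.0191). All 14 known targets of HOXA9 and MEIS1 were tested, and 0 passed. At an unadjusted p below 0.05 there were 1 higher and 4 lower, beside 18.2% of all genes. The smallest p was that of Sox4, a transcription factor of immature cells, which stood at 12541 ± 1244 and 8984 ± 261 (log2 fold change -0.48, SE 0.12, interval -0.75 to -0.20, adjusted p = 0.105).

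The mean centred log2 profile of the 5 Hoxa members over the 6 libraries ranged from -0.12 to 0.21, and that of the 4 tested Hoxb members from -0.10 to 0.16. Among 11533 genes outside the Hox clusters with a mean of at least 100, the profiles nearest to that of the Hoxa members were those of Dus3l, Gpaa1 and Tmem259, with root mean square differences of 0.0266, 0.0330 and 0.0346, where the median gene differed by 0.272. Nearest to the Hoxb members were Gpbp1, Gtpbp10 and Wwox at 0.0135, 0.0159 and 0.0186, where the median gene differed by 0.242. The nearest of so many genes over 6 libraries are a description of these libraries.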

How the data were processed

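Per the labels' protocols, SMART-Seq v4 made the cDNA and Nextera XT the libraries, and neither kit marks strand. Reads were aligned with STAR and counted with featureCounts on mm10, per the submitters' processing notes, but no version, annotation or counting setting is stated there. A table of 24110 genes was deposited. For Prmt5 fl/fl replicate 2 the authors deposited raw read counts. In the other 5 deposited columns the signal is the gene's count multiplied by that library's total (44704636) and divided by the column's own total. Dividing this out gave whole reads for 100% of values within a tolerance of 1e-06, and 3 reads are worth 3.00 to 3.54 scaled counts.

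Genes with a mean of at least 10 (14113) were compared on log2(value + 1) by the two-sided limma-trend test (limma 3.58.1, R 4.3.3), which had 4 residual degrees of freedom. Fold changes on that scale understate the change of low genes. Benjamini-Hochberg adjustment covered every tested gene, and the threshold was 0.05. edgeR 4.0.16 and DESeq2 1.42.0 on the recovered reads, other scalings, filters and pseudocounts, the replicate block and leaving out each library were alternatives. The model was tested on simulated data with the same dispersion for every gene and no library that stood apart. That test does not cover the spread between the libraries used here. The spread behind each limma p-value is that between pools of mice, moderated toward the trend over all tested genes. Each library differed from every other (chi-square per degree of freedom 26.2 to 357).

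The replicate numbers go with title prefixes shared by 1 library of each genotype, and litters were matched between genotypes. The labels do not explain the prefix. All intervals and adjusted p-values given are from the unpaired fit unless the block is named, and the replicate number enters only as a block in 1 alternative. Correlations of same-number deviations over genes were -0.14, 0.067 and -0.26. The block leaves 2 residual degrees of freedom.

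The members and gene lists were chosen with earlier results of these data known. Named were the members, other Hox genes and cluster noncoding transcripts with a mean of at least 10, transcripts over a member's exons, Prmt5, and in each list without a call the gene with the smallest p. 1 gene that this rule took is not reported here. Meis1, the genes at 0 and the marker genes were named after their values were seen. GENCODE M21 gave exons, and RefSeq (GRCm38.p6) gave promoters and microRNAs. Plots were made with Python 3.11.15 and matplotlib 3.10.9.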

Additional observations from a re-analysis of the deposited data

How the results depend on the processing

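No member was called under any of the 15 alternatives to the fit, and 129 of 135 member fold changes kept their direction. The 6 that reversed all came from leaving out 1 library: Hoxa3 to -0.23 without Prmt5 fl/fl replicate 3 and -0.046 without Prmt5 KO replicate 2, Hoxa7 to -0.028 and -0.034 without Prmt5 fl/fl replicates 1 and 2, and Hoxb2 to -0.014 without Prmt5 fl/fl replicate 2 and -0.048 without Prmt5 KO replicate 1. Over those fits the log2 fold change ranged from -0.23 to 0.38 for Hoxa3, -0.034 to 0.18 for Hoxa7, -0.048 to 0.16 for Hoxb2 and -0.66 to -0.38 for Hoxb3. The replicate block changed no call among members, with Hoxb3 at an adjusted p of 0.439.

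Over all genes the 39 higher calls became 365 with DESeq2, 1 with the replicate block and 1 to 120 with a library left out. The 64 lower calls became 38 with no filter, 22 with median-of-ratios size factors, 26 with quantile normalization, 26 with edgeR, 616 with DESeq2, 0 with the block and 2 to 257 with a library left out. Median-of-ratios size factors and quantile normalization gave 35 and 38 higher calls, so the split between directions depends on the scaling. The causes were not tested. Depth limits Hoxb8, at 1 to 13 reads per library, and counting error also bears on Hoxb3 and Hoxb4, where Prmt5 KO libraries held as few as 103 and 79 reads.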
